A study of Homo sapiens with 24 samples.

Results

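Condensin and topoisomerase II give mitotic chromosomes their shape, and the mRNAs of their 10 genes were followed in PPC1 cells and in the polyploid giant cancer cells (PGCC) made from them by radiation. The 10 genes were picked by symbol from the 48162 genes of the deposited count table: SMC2 and SMC4, NCAPD2, NCAPG and NCAPH, NCAPD3, NCAPG2 and NCAPH2, and TOP2A and TOP2B. All 10 were found in the table and passed the filter on low counts in each comparison, with between 102 and 7485 counts in any library. PPC1 is a human prostate cancer cell line, and RNA was sequenced from 4 conditions with 6 libraries each, from 6 experiments in which all conditions were harvested side by side. Same-numbered libraries were taken to come from the same experiment, since the sample titles give a number only. Parental cells were plated on day 1 and harvested on day 5 without radiation. PGCC came from plates given 8 Gy on day 2, were also harvested on day 5, and were enriched as the cells held back by a 20 micron filter. In each population a further condition received LCL521, a pro-drug that inhibits the lysosomal enzyme acid ceramidase, at 5 µM for 5 hours before harvest. Parental cells were neither irradiated nor filtered, so the effects of radiation, of filtration and of size selection cannot be told apart here. The populations are of a single cell line, and the share of giant cells in each PGCC library was not measured in these data.

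Condensins are ring-shaped complexes that use ATP to fold chromatin into loops, and they compact chromosomes when cells divide. Both condensins share the ATPase pair SMC2 and SMC4. Condensin I adds NCAPD2, NCAPG and NCAPH and meets chromosomes after the nuclear envelope breaks down, whereas condensin II adds NCAPD3, NCAPG2 and NCAPH2 and stays in the nucleus through interphase. NCAPH and NCAPH2 are kleisins that close the ring, and the other subunits are HEAT-repeat proteins that bind DNA. Topoisomerase II passes a DNA duplex through a break in another and so removes tangles between sister chromosomes. Its TOP2A form is made in dividing cells and acts with condensin on mitotic chromosomes. Its TOP2B form is also made in resting cells, where it works at transcribed genes.

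Total counts lay between 14835246 and 19906601 per library. Replicates 4 and 5 stood apart from the others in every condition: on the second principal component, with 16.5% of the variance, their 8 libraries lay at 13.3 or above and the 16 others at -4.11 or below. Values of these replicates are therefore also given apart for each of the 10 genes. Of the markers reported, KRT8, KRT18 and the prostate factor HOXB13 were well counted, at 50.6 CPM (read counts scaled to a common library size) or more in any library. KRT8 was higher in PGCC, with a mean of 178 CPM beside 70.3 CPM in parental cells (edgeR adjusted p = 3.51e-06), whereas KRT18 and HOXB13 were lower, by log2 changes of -0.46 and -0.80 (edgeR adjusted p = 0.00196 and 2.13e-04). The epithelial genes EPCAM and CDH1 had at most 0.852 and 6.50 CPM, and the prostate genes KLK3 and FOLH1 had 0 counts in all 24 libraries. Of the markers of other cell types found in the table, the leukocyte gene PTPRC had between 0.354 and 4.03 CPM and the fibroblast gene COL1A1 between 5.01 and 14.2 CPM. PTPRC was higher in PGCC (log2 change 1.39, SE 0.43, edgeR adjusted p = 0.0164) and COL1A1 was not called (log2 change -0.23, edgeR adjusted p = 0.4). The sum of the pair was between 7.68 and 13.6 CPM in parental cells and between 8.93 and 11.7 CPM in PGCC. The part of these genes' levels in the results below was not tested.

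The question of the comparison between parental cells and PGCC is how the transcriptome of cells that became giant after radiation differs from that of the cells they came from. All 10 genes passed the threshold of an adjusted p of 0.05, 9 higher and 1 lower in PGCC, by edgeR's quasi-likelihood test, with p-values adjusted by Benjamini and Hochberg's method over 13812 genes. Over all genes tested 47.4% passed, 23.1% higher and 24.3% lower. The gene that fell was TOP2B, the topoisomerase II that is also made in resting cells. The largest rises were those of NCAPG, NCAPG2 and TOP2A, each above 4-fold, followed by NCAPH and NCAPD2 above 3-fold and SMC2 above 2-fold. NCAPD3, NCAPH2 and SMC4 rose by less than 1.5-fold. The median log2 fold change of the 10 genes was 1.40, and that of all genes tested was -0.03. With the replicate number as a block all 10 passed again, beside 56.2% of all genes. In 8 of the 9 genes that rose, every PGCC library lay above every parental library, which was so for 13.9% of all genes tested. TOP2B libraries did not overlap in the other direction, as for 12.9% of all genes. Levels are shares of a library's counts: in bulk RNA, more cells that make an mRNA and more of the mRNA per cell cannot be told apart, nor can more total RNA per cell be seen.

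**Figure D1:**
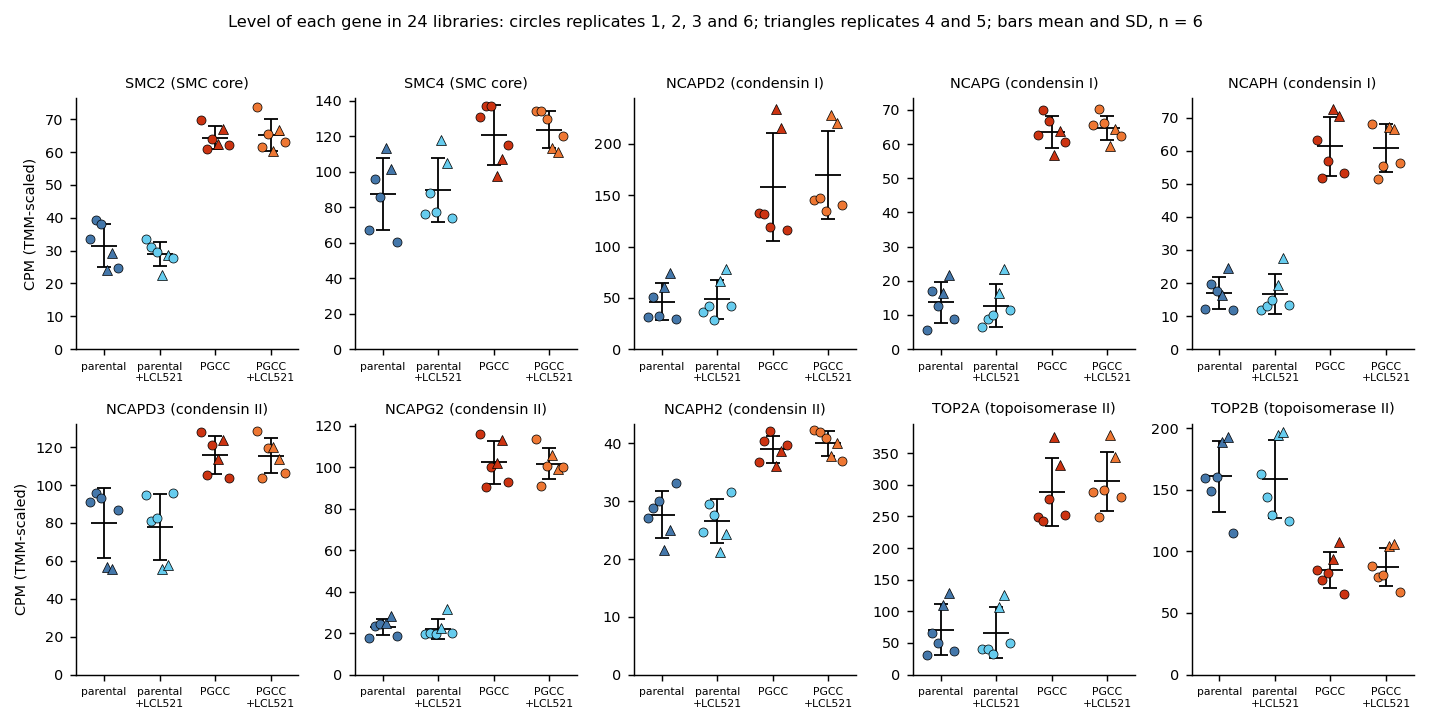
Level of each of the 10 genes in CPM (vertical axis, linear from 0) in the 4 conditions (horizontal axis), with a point for each of 24 libraries and bars for the mean and SD of 6. TOP2B has its parental libraries at 115 CPM or more and its PGCC libraries at 108 CPM or less, whereas the other genes are higher in PGCC, with overlap between libraries in SMC4.

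The topoisomerase II genes are taken before the condensins, since they moved in opposite directions. TOP2A (ENSG00000131747, chromosome 17 from 38544768 to 38574202 in hg19) had a lowest, median and highest level of 30.9, 58.0 and 129 CPM in parental cells. In PGCC the levels were 243, 265 and 375 CPM. The lowest PGCC library was thus above the highest parental library. The 2 highest parental libraries were those of replicates 4 and 5, at 110 and 129 CPM, with the others at 65.6 CPM or less, and replicates 4 and 5 were also the highest in PGCC, at 375 and 332 CPM. TOP2A rose 4.09-fold (95% interval 2.57 to 6.52, log2 change 2.03, SE 0.31, edgeR adjusted p = 1.25e-04). All 6 pairs of libraries with the same number showed it. The exact permutation test (two-sided) had p = 0.00216, the smallest that the 924 divisions of 6 against 6 libraries allow, and the same p was found for every gene whose groups did not overlap. The mean paired difference was 2.53 on the log2 scale over replicates 1, 2, 3 and 6 and 1.56 over replicates 4 and 5, and the difference between these sets of replicates was not tested.

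TOP2B (ENSG00000077097, chromosome 3 from 25639475 to 25706398) had a lowest, median and highest level of 115, 160 and 193 CPM in parental cells. In PGCC it had 65.3, 83.6 and 108 CPM. The groups did not overlap, although the parental libraries ranged widely. TOP2B fell 1.88-fold (95% interval 1.54 to 2.30, log2 change -0.91, SE 0.13, edgeR adjusted p = 8.2e-05), and 3.93% of the genes tested had a more negative change. It was lower in PGCC in 6 of 6 pairs. The paired differences had the narrowest range of the 10 genes, from -1.01 to -0.81, with means of -0.91 over replicates 1, 2, 3 and 6 and of -0.92 over replicates 4 and 5. TOP2B was highest in replicates 4 and 5 of each population, with 189 and 193 CPM in parental cells.

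Set against each other within a library, the topoisomerase II mRNAs changed places. The ratio of TOP2A to TOP2B, each per kilobase of the gene length in the table, was 0.181, 0.357 and 0.625 at its lowest, median and highest in parental cells. In PGCC the same ratio was 2.76, 3.06 and 3.74. TOP2B was thus the more abundant per length in all 6 parental libraries and TOP2A in all 6 PGCC libraries. With LCL521 the ratio was between 0.234 and 0.601 in parental cells and between 2.95 and 3.94 in PGCC. This ratio follows from the levels above and is given as a description, without a test.

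**Figure D2:**
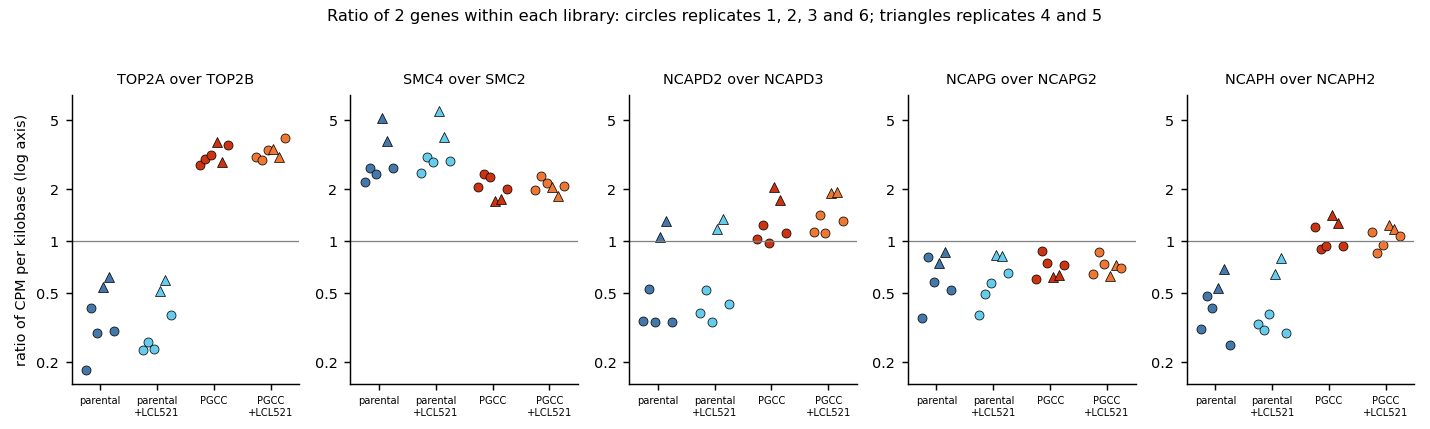
Ratio of 2 genes' levels, each in CPM per kilobase, within each of the 24 libraries (vertical log axis), by condition (horizontal axis), with a grey line at equal levels. TOP2A over TOP2B is below 1 in all 12 parental libraries and above 1 in all 12 PGCC libraries, while NCAPG over NCAPG2 lies below 1 in all 24.

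Promoter sequence is shown for 3 genes that rose, TOP2A and NCAPD2, whose windows hold the most motif matches, and NCAPG, whose window holds the most E2F cores, and for TOP2B, which fell. These 4 were chosen after the values were seen. The windows are from RefSeq on GRCh38.p14, and each has 250 bases before a transcription start and 50 after it. Of the 10 genes, 9 had at least 1 window, 13 windows in all, and NCAPH2 was not matched. Only the 250 bases before the start are printed, on the gene's own strand: TOP2A at chr17:40417897-40418146 (minus strand), NCAPD2 at chr12:6493852-6494101 (plus strand), NCAPG at chr4:17810729-17810978 (plus strand) and the more upstream of the TOP2B starts at chr3:25664908-25665157 (minus strand). Capitals mark matches on either strand to the CCAAT box (CCAAT, or ATTGG on the other strand), to the core of the cell cycle homology region (TTTGAA or TTCAAA) and to an E2F core (TTCCCGC or TTGGCGC, or their reverse complements), which are elements known from promoters of cell cycle genes.
TOP2A: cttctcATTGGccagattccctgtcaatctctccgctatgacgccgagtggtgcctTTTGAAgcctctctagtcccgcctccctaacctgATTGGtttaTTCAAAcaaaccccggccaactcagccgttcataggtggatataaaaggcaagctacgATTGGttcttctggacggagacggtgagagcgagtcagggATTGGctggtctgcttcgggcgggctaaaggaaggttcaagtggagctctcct
NCAPD2: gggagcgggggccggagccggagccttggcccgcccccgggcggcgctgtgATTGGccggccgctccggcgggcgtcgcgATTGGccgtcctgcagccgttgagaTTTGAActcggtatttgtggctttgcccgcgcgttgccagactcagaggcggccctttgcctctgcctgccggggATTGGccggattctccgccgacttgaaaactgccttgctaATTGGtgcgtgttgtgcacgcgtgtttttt
NCAPG: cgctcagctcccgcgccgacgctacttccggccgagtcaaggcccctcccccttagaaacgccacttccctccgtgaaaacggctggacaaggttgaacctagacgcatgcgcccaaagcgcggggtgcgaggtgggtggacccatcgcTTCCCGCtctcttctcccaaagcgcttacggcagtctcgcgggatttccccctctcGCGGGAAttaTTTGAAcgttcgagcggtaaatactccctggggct
TOP2B: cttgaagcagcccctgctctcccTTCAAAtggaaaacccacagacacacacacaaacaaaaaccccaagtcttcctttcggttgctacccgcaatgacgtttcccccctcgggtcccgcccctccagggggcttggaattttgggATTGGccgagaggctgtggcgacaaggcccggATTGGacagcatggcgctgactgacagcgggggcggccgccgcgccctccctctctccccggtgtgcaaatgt

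In the window of TOP2A, 4 CCAAT boxes began between 244 and 53 bases before the start, and 2 TTTGAA matches lay 194 and 151 bases before it. NCAPD2 also had 4 CCAAT boxes, between 199 and 30 bases before the start, with a TTTGAA match at 145. At least 3 CCAAT boxes were held by 3.26% of the 35116 windows of all genes. NCAPG had no CCAAT box in its window but 2 E2F cores and a TTTGAA match 35 bases before the start. The upstream TOP2B window held 2 CCAAT boxes and a TTTGAA match, 227 bases before the start, and its other window held no match to any of the 3 motifs. Of all windows, 34.6% held a CCAAT box, 15.2% a TTTGAA match and 9.23% an E2F core. Of the 13 windows of the 9 matched genes, 5 held a CCAAT box, 8 a TTTGAA match and 2 an E2F core, the latter those of NCAPG and NCAPD3, and a window of NCAPD3 held 2 CCAAT boxes and a TTTGAA match beside its E2F core. The matched gene without a TTTGAA match was NCAPH. An E2F core and a CCAAT box can share bases, since TTGGCGC begins within ATTGG. These matches are letters in a window and no measure of binding, and TOP2B, which fell, held matches to the CCAAT box and to TTTGAA as well.

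Among the genes shared by both condensins, SMC2 and SMC4 encode the ATPase pair. SMC2 (ENSG00000136824, chromosome 9 from 106856541 to 106903698) had a lowest, median and highest level of 24.1, 31.4 and 39.3 CPM in parental cells and of 61.0, 63.1 and 69.9 CPM in PGCC. The groups were far apart, and the PGCC libraries were the more alike, with a coefficient of variation of 5.28% against 20.8%. SMC2 rose 2.05-fold (95% interval 1.71 to 2.46, log2 change 1.04, SE 0.12, edgeR adjusted p = 1.13e-05), in 6 of 6 pairs. The mean paired difference on the log2 scale was 0.94 for replicates 1, 2, 3 and 6 and 1.28 for replicates 4 and 5.

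SMC4 (ENSG00000113810, chromosome 3 from 160117062 to 160152750) was the only gene of the 10 whose libraries overlapped between the populations. Its lowest, median and highest levels were 60.4, 90.8 and 113 CPM in parental cells and 97.4, 123 and 137 CPM in PGCC. The highest parental library was above 2 of the PGCC libraries. SMC4 rose 1.39-fold (95% interval 1.11 to 1.74, log2 change 0.47, SE 0.15, edgeR adjusted p = 0.0186), in 5 of 6 pairs (exact permutation p = 0.0152, two-sided). The overlapping libraries were those of replicates 4 and 5, which had the highest parental levels, 113 and 102 CPM, and the lowest PGCC levels, 97.4 and 107 CPM. In replicates 1, 2, 3 and 6 the mean paired difference was 0.77 on the log2 scale, whereas in replicates 4 and 5 it was -0.07. Without replicates 4 and 5 the log2 fold change was 0.77 (edgeR adjusted p = 2.17e-04). Without replicate 1, 2 or 3, SMC4 no longer passed, with log2 fold changes of 0.38, 0.46 and 0.42 and adjusted p-values of 0.0788, 0.054 and 0.072 from edgeR. The ratio of SMC4 to SMC2 per kilobase was between 2.19 and 5.13 in parental cells and between 1.70 and 2.45 in PGCC, so that SMC4 was above SMC2 in each of these libraries. The SMC4 gene overlaps IFT80 on the other strand by 607 bases, and IFT80 had between 132 and 336 counts. It also overlaps TRIM59, on the other strand too, by 2518 bases, with between 93 and 267 counts of TRIM59. Counts of IFT80 and of this TRIM59 entry reached up to 18% and 13.4% of those of SMC4 in the same library. Another entry named TRIM59, also on the other strand, overlaps SMC4 by 35689 bases and had 0 counts in every library.

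The subunits particular to condensin I all rose by more than 3-fold. NCAPG (ENSG00000109805, chromosome 4 from 17812525 to 17846485), a HEAT-repeat subunit, had 5.55, 14.5 and 21.7 CPM at its lowest, median and highest in parental cells. In PGCC it had 56.8, 63.2 and 70.1 CPM, well above the parental range and with little spread. NCAPG rose 4.66-fold (95% interval 3.21 to 6.77, log2 change 2.22, SE 0.25, edgeR adjusted p = 8.36e-06), and 97.2% of the genes tested had a smaller log2 fold change. The paired differences ranged from 1.55 to 3.47 on the log2 scale, with means of 2.67 over replicates 1, 2, 3 and 6 and of 1.67 over replicates 4 and 5. Replicate 5 had the highest parental level, 21.7 CPM, and replicate 4 had 16.4 CPM, below the 16.9 CPM of replicate 2. In PGCC replicates 4 and 5 had 56.8 and 63.8 CPM and were not the highest, unlike those of TOP2A.

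NCAPH (ENSG00000121152, chromosome 2 from 97001525 to 97039583), the kleisin of condensin I, had 11.8, 17.0 and 24.5 CPM at its lowest, median and highest in parental cells and 51.7, 59.9 and 72.7 CPM in PGCC. It rose 3.61-fold (95% interval 2.79 to 4.66, log2 change 1.85, SE 0.17, edgeR adjusted p = 1.49e-06). The mean paired differences of 1.90 over replicates 1, 2, 3 and 6 and of 1.83 over replicates 4 and 5 were close.

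NCAPD2 (ENSG00000010292, chromosome 12 from 6602522 to 6641121), the other HEAT-repeat subunit of condensin I, had 29.6, 41.4 and 73.7 CPM in parental cells and 116, 132 and 234 CPM in PGCC. The highest libraries of either population were those of replicates 4 and 5, at 60.1 and 73.7 CPM in parental cells and 234 and 216 CPM in PGCC, so that the rise within each set of replicates was much the same, 1.82 and 1.75 on the log2 scale. NCAPD2 rose 3.41-fold (95% interval 2.32 to 5.03, log2 change 1.77, SE 0.26, edgeR adjusted p = 8.31e-05). Its gene overlaps MRPL51 on the other strand by 486 bases, and MRPL51 had between 1390 and 2147 counts per library. Counts of MRPL51 reached up to 370% of those of NCAPD2 in the same library. NCAPG likewise overlaps LCORL by 1647 bases, with between 130 and 210 counts of LCORL, up to 169% of those of NCAPG in the same library. The sources used here do not give the strand setting of the counting, so reads from these overlaps cannot be assigned.

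Of the subunits particular to condensin II, NCAPG2 rose by more than 4-fold, and NCAPD3 and NCAPH2 by less than 1.5-fold. NCAPG2 (ENSG00000146918, chromosome 7 from 158424003 to 158497520), the HEAT-repeat counterpart of NCAPG, had 17.5, 24.0 and 28.3 CPM at its lowest, median and highest in parental cells. In PGCC it had 90.3, 101 and 116 CPM. NCAPG2 rose 4.49-fold (95% interval 3.75 to 5.38, log2 change 2.17, SE 0.12, edgeR adjusted p = 2.38e-08), the smallest adjusted p of the 10 genes. All paired differences lay between 1.94 and 2.72 on the log2 scale, with a mean of 2.24 for replicates 1, 2, 3 and 6 and 2.02 for replicates 4 and 5. The latter had the highest parental levels, 24.7 and 28.3 CPM.

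NCAPD3 (ENSG00000151503, chromosome 11 from 134020014 to 134095348), the HEAT-repeat counterpart of NCAPD2, had 55.8, 88.9 and 95.5 CPM at its lowest, median and highest in parental cells. In PGCC it had 104, 118 and 128 CPM. The low parental libraries were those of replicates 4 and 5, at 56.5 and 55.8 CPM, with the others at 86.9 CPM or more. In PGCC the same replicates lay within the range of the rest. NCAPD3 rose 1.46-fold (95% interval 1.19 to 1.79, log2 change 0.55, SE 0.14, edgeR adjusted p = 0.00487), in 6 of 6 pairs. The mean paired difference was 0.32 on the log2 scale over replicates 1, 2, 3 and 6 and 1.08 over replicates 4 and 5. Without replicates 4 and 5 the log2 fold change was 0.34 (edgeR adjusted p = 0.00395). Its gene overlaps VPS26B, on the other strand, by 810 bases, and VPS26B had between 878 and 1707 counts. Counts of VPS26B reached up to 138% of those of NCAPD3 in the same library.

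NCAPH2 (ENSG00000025770, chromosome 22 from 50946645 to 50961901), the kleisin of condensin II, had 21.5, 28.0 and 33.2 CPM at its lowest, median and highest in parental cells and 36.1, 39.2 and 42.2 CPM in PGCC. The gap between the groups was narrow, but no libraries overlapped. NCAPH2 rose 1.42-fold (95% interval 1.21 to 1.66, log2 change 0.50, SE 0.10, edgeR adjusted p = 0.00126), with mean paired differences of 0.42 over replicates 1, 2, 3 and 6 and of 0.68 over replicates 4 and 5. With SMC4 and NCAPD3 it made up the genes of the smallest rises, yet 78.1% of the genes tested had a smaller log2 fold change.

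**Figure D3:**
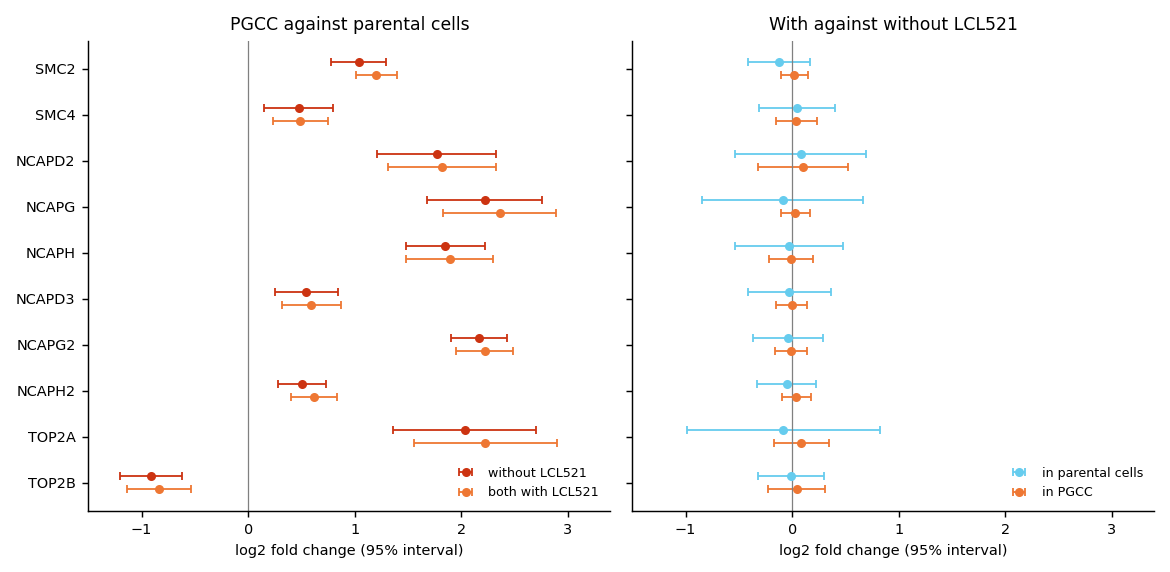
Log2 fold change (horizontal axis) of each of the 10 genes (vertical axis) with its 95% interval from edgeR, between PGCC and parental cells on the left and with against without LCL521 on the right. On the left the values run from -0.91 for TOP2B to 2.36 for NCAPG with LCL521, and on the right every interval holds 0.

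Levels of different genes were compared only per kilobase of the length that the table gives, which stands for the transcripts in use only in part. In parental cells the order of mean CPM per kilobase was TOP2B at 29.8 ± 5.28 (SD, n = 6), SMC4 at 16.0 ± 3.74, NCAPD3 at 14.4 ± 3.36, NCAPH2 at 13.3 ± 1.96, TOP2A at 12.2 ± 6.99, NCAPD2 at 8.35 ± 3.29, NCAPH at 5.78 ± 1.64, SMC2 at 5.28 ± 1.10, NCAPG2 at 4.36 ± 0.767 and NCAPG at 2.93 ± 1.26. Each gene below TOP2B overlapped its neighbour in this order, and the ranges of SMC4, NCAPD3, NCAPH2 and TOP2A all overlapped. In PGCC the order was TOP2A at 50.1 ± 9.32, NCAPD2 at 28.5 ± 9.45, SMC4 at 22.1 ± 3.06, NCAPD3 at 21.0 ± 1.82, NCAPH at 20.8 ± 3.00, NCAPG2 at 19.5 ± 1.98, NCAPH2 at 18.8 ± 1.12, TOP2B at 15.8 ± 2.70, NCAPG at 13.6 ± 1.00 and SMC2 at 10.8 ± 0.569. TOP2A went from the fifth place to the top and TOP2B from the top to the eighth. From NCAPD2 to NCAPG, neighbours in this order overlapped, whereas SMC2, at 11.7 or less, lay below the lowest NCAPG library, at 12.2. The order was the same with LCL521 in either population.

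**Figure D4:**
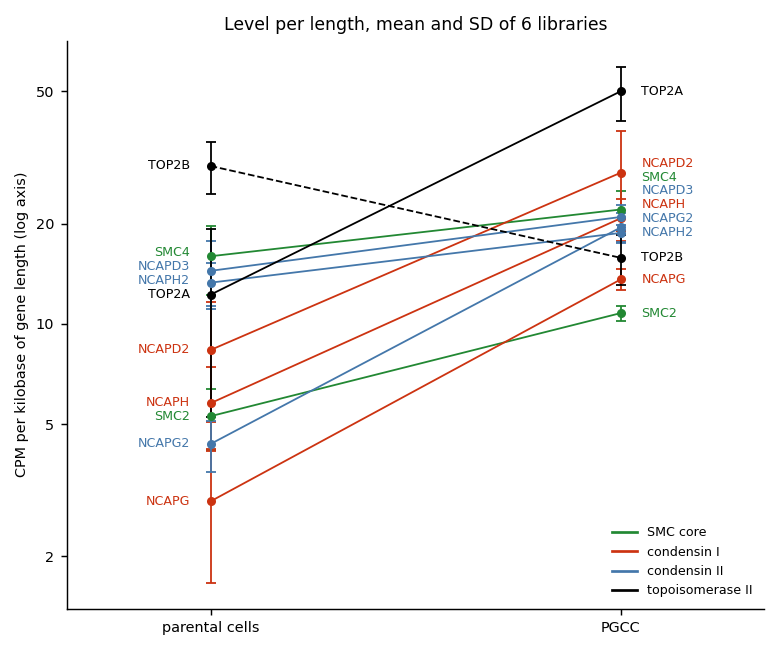
Mean level per kilobase of gene length (vertical log axis, CPM per kilobase, bars for the SD of 6 libraries) in parental cells and PGCC, with a line for each gene. The lines of TOP2A and TOP2B cross, from 12.2 to 50.1 and from 29.8 to 15.8, and the condensin subunits, spread between 2.93 and 16.0 in parental cells, lie between 10.8 and 28.5 in PGCC.

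Each subunit of condensin I was also set against its counterpart in condensin II within a library, as ratios of CPM per kilobase and without a test. NCAPD2 over NCAPD3 was 0.340, 0.439 and 1.32 at its lowest, median and highest in parental cells and 0.974, 1.18 and 2.05 in PGCC. In parental cells replicates 4 and 5 were the only libraries above 1, and their ratios overlapped those of PGCC. The kleisin ratio, NCAPH over NCAPH2, was 0.251, 0.448 and 0.689 in parental cells and 0.900, 1.08 and 1.42 in PGCC, with no overlap. NCAPG over NCAPG2 stayed in the same range, 0.358, 0.663 and 0.864 in parental cells and 0.609, 0.685 and 0.875 in PGCC. Per length, then, the condensin I mRNAs of the HEAT-repeat D subunit and of the kleisin were below their condensin II counterparts in the median parental library and near or above them in PGCC.

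The same comparison among libraries given LCL521 used other libraries from the same 6 experiments. All 10 genes passed in it, again with 9 higher and TOP2B lower, where 48.9% of 13818 genes passed, 25% higher and 23.9% lower. The median log2 fold change of the 10 genes was 1.51, beside -0.01 for all genes tested. NCAPG rose by 2.36 on the log2 scale, TOP2A by 2.23, NCAPG2 by 2.22, NCAPH by 1.89, NCAPD2 by 1.82 and SMC2 by 1.20, each with an adjusted p of 4.7e-05 or less from edgeR. NCAPH2 rose by 0.62, NCAPD3 by 0.59 and SMC4 by 0.49, with adjusted p-values of 1.67e-04, 0.00171 and 0.00376 from edgeR. TOP2B fell by 0.83 on the log2 scale (SE 0.14, edgeR adjusted p = 2.24e-04). SMC4 libraries again overlapped, with mean paired differences of 0.72 over replicates 1, 2, 3 and 6 and of 0.02 over replicates 4 and 5. In 8 genes all libraries of PGCC lay above those of parental cells (14.4% of all genes), and in TOP2B below them (13.7%). All 10 passed with the block too, beside 56.3% of all genes.

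LCL521 was given to find which mRNAs respond to the inhibition of acid ceramidase within hours. In parental cells 0 of the 10 genes passed edgeR's test, 0 had an unadjusted p under 0.05 and 0 passed with DESeq2. Of all 13277 genes tested, 0% passed with edgeR, with 71 at an unadjusted p under 0.05, and 0 with DESeq2. In PGCC 0 of the 10 genes passed edgeR's test, 0 had an unadjusted p under 0.05 and 0 passed with DESeq2, beside 0.00707% of 14151 genes, a single gene (218 at an unadjusted p under 0.05, and 6 genes with DESeq2). The median log2 fold change of the 10 genes was -0.03 in parental cells and 0.03 in PGCC.

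The precision of these values differs between the populations. In parental cells the interval was widest for TOP2A, from -0.99 to 0.82 around a log2 fold change of -0.09, and narrowest for NCAPH2, from -0.33 to 0.23 around -0.05. In PGCC it was widest for NCAPD2, from -0.32 to 0.53 around 0.10, and narrowest for SMC2, from -0.11 to 0.15 around 0.02. Blocking on the replicate number gave narrower intervals: that of TOP2A in parental cells ran from -0.34 to 0.16. TOP2A in PGCC had 249, 290 and 379 CPM at its lowest, median and highest with LCL521, beside 243, 265 and 375 CPM without. It was higher with LCL521 in 6 of 6 pairs, by 0.01 to 0.21 on the log2 scale, and the blocked fit gave 0.09 with an adjusted p of 0.18 from edgeR (unadjusted p 0.00982). NCAPD2 was higher with LCL521 in 5 of 6 pairs, with a blocked log2 fold change of 0.12 and an adjusted p of 0.0952 from edgeR. With the block, 0 of the 10 genes passed edgeR's test in either population, where 0.866% of all genes passed in parental cells and 1.65% in PGCC. Only TOP2A and NCAPD2 in PGCC had an unadjusted p under 0.05 in that fit. TOP2B in PGCC had a log2 fold change of 0.04 (95% interval -0.22 to 0.31), and in parental cells of -0.01 (-0.32 to 0.30).

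Whether LCL521 acted differently on the 10 genes in PGCC and in parental cells was tested as an interaction over all 24 libraries. It was called for 0 of the 10 genes by edgeR, with or without the block, and by DESeq2, and 0 had an unadjusted p under 0.05. Of 14555 genes 0% were called by edgeR, with 60 at an unadjusted p under 0.05, and 0 by DESeq2. The interaction of TOP2A was 0.17 on the log2 scale (95% interval -0.76 to 1.11), that of SMC2 was 0.15 (-0.17 to 0.47) and that of TOP2B was 0.06 (-0.36 to 0.48).

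The relatives and partners of these genes were counted from lists of the other SMC complexes, of other topoisomerases and of proteins that act on condensin. Cohesin, the SMC complex that holds sister chromatids together, had 7 genes higher, 4 lower and 7 not called in PGCC among 18, with a median log2 fold change of 0.07, beside 23.1% higher and 24.3% lower over all genes. Its largest rises were those of regulators: ESCO2, which acetylates cohesin in S phase, by 3.00 on the log2 scale, CDCA5 (sororin), which protects cohesion, by 2.46, and SGO2 (listed as SGOL2), a shugoshin, by 2.43. Its falls were smaller, with log2 fold changes of -0.43 for the loader NIPBL, -0.38 for PDS5B and -0.32 for the deacetylase HDAC8. The core SMC pair of cohesin divided, with log2 fold changes of 0.52 for SMC1A and -0.32 for SMC3 (adjusted p = 7.62e-05 and 0.0286 from edgeR). Of the meiotic cohesin genes, 2 of 4 passed the filter on low counts and 0 were called by edgeR, with 1 at an unadjusted p under 0.05, REC8 (log2 change 0.73, edgeR adjusted p = 0.0892, and 0.0427 with the block).

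In the SMC5/6 complex, a partner of DNA repair, 2 of 7 genes were higher and 2 lower, with a median log2 fold change of -0.05, where 47.4% of all genes were called. SMC6 rose by 0.58 on the log2 scale and EID3 by 1.75, the latter at 3.34 CPM or less in any library, while NSMCE3 (listed as NDNL2) and NSMCE1 had log2 fold changes of -0.73 and -0.30. Among other topoisomerases and enzymes for their DNA adducts, 5 of 12 were higher and 2 lower, with a median of 0.18, beside the same 47.4% of all genes called. BLM, the helicase that works with topoisomerase III, rose by 1.83 on the log2 scale, and its partners RMI2 and RMI1 by 1.25 and 0.70. The mitochondrial TOP1MT had a log2 fold change of -0.95 and TDP2, which frees DNA ends from trapped topoisomerase II, of -0.42. TOP1 was at 305 ± 85.5 CPM (SD, n = 6) in parental libraries and at 313 ± 21.7 CPM in those of PGCC (log2 change 0.04, edgeR adjusted p = 0.836).

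Of 14 condensin regulators and mitotic chromosome proteins, 12 were higher, 0 lower and 2 not called, with a median log2 fold change of 2.12, beside -0.03 for all genes, of which 23.1% were higher. KIF4A, a kinesin that works beside condensin I on the chromosome axis, rose by 2.74 on the log2 scale, AURKB, the mitotic kinase that phosphorylates condensin I, by 2.72, and BIRC5 (survivin), its partner in the chromosomal passenger complex, went from a mean of 9.21 CPM to 52.0 CPM. MCPH1, known to restrain condensin II, had a log2 fold change of -0.06 (edgeR adjusted p = 0.72), and AKAP8, which binds chromatin and condensin, of -0.26 (edgeR adjusted p = 0.0673, and 0.00773 with the block). Of the 10 genes, 9 thus rose in libraries in which these mitotic mRNAs also rose. The share of dividing cells in either population was not measured here, and the paper describes PGCC as not proliferating.

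For each of the 10 genes, the genes outside the set whose deviations from the condition means were most alike were looked for among 10647 genes over the 24 libraries. Since replicates 4 and 5 stand apart, Pearson's r is given over all libraries and then without them, as a description. NCAPG was most like PBK, a mitotic kinase, with r of 0.951 and 0.901, then DEPDC1 with 0.930 and 0.876 and CENPA, the centromeric histone, with 0.926 and 0.804. TOP2A was most like GOLPH3L, with 0.958 and 0.727, CIT, the citron kinase of cytokinesis, with 0.957 and 0.733, and UBE2C, the ubiquitin carrier of mitotic exit, with 0.956 and 0.889. TOP2B was most like LPIN2, with 0.960 and 0.925, DYNC2H1, a motor of cilia, with 0.956 and 0.892, and KAT6B, a histone acetyltransferase, with 0.947 and 0.934. NCAPD3 was most like BRF1, with 0.955, which fell to 0.662 without replicates 4 and 5. RFWD3 (0.953 and 0.811) and GTF2I (0.953 and 0.862) came next for NCAPD3. NCAPG2 was most like KAT2B (0.888 and 0.809), KIF11, the spindle kinesin (0.888 and 0.828), and SMARCA1 (0.88 and 0.729). For SMC2 the closest gene was CHML (0.880 and 0.867), for SMC4 PHLDB2 (0.879 and 0.747), for NCAPD2 RP11-59J5.1 (0.948 and 0.744), for NCAPH ARHGAP11A (0.894 and 0.767) and for NCAPH2 FANCA (0.902 and 0.841). Next came MRPL19 (0.855 and 0.785) and KCTD20 (0.836 and 0.842) for SMC2. For SMC4 they were NEDD4 (0.876 and 0.834) and WDR67 (0.867 and 0.809). For NCAPD2 they were PAQR8 (0.945 and 0.867) and NR2F1 (0.943 and 0.66). The next genes were ARHGAP21 (0.889 and 0.757) and TMEM117 (0.885 and 0.762) for NCAPH. For NCAPH2 they were DPF1 (0.895 and 0.697) and DSN1 (0.892 and 0.705). All these points share libraries, depth and the division between replicates.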

How the data were processed

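RNA-seq libraries of PPC1 cells were made in 4 conditions with 6 replicates each, 24 in all. The authors deposited read counts per gene for 48162 genes, not normalized, in a single table with each gene's length, Ensembl identifier, symbol and coordinates. Per the study's methods, reads were aligned with STAR and counted per gene with HTSeq. The processing notes also name CASAVA, DESeq2 and hg19. The annotation release and the strand setting are not given in the sources used here. How the counting treated reads of near-identical genes is not stated there either, and 0 columns of samples were left out.

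Counts were analysed in R 4.3.3. For each comparison, low counts were removed with filterByExpr (minimum count 10, minimum total 15), libraries were scaled by TMM, and the 12 libraries of its conditions (all 24 for the interaction) were fitted with the quasi-likelihood test of edgeR 4.0.16 (limma 3.58.1), adjusted by Benjamini-Hochberg over all genes tested, with a threshold of 0.05. Levels are CPM, counts scaled to a common library size by TMM, and log2 CPM carries a prior count of 2. Standard errors (SE) were taken as the absolute log2 fold change over the root of F, and intervals are at 95%. For single genes, the difference of mean log2 CPM was put to an exact permutation test, two-sided. The 10 genes are those of the 2 condensins and topoisomerase II. The genes, lists, promoter motifs and alternatives were chosen with earlier results of these data known. Of each list, the 3 largest rises and falls past the threshold are named, and others were named after their values were seen. For each of the 10 genes, the 3 best correlated genes were found from deviations from condition means, among genes averaging 2 log2 CPM or more.

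The replicate numbers were taken to mark the 6 experiments in which the conditions were harvested together, since the sample titles give a number only. Across genes, deviations from the condition means of same-numbered libraries correlated in every pair, with r between 0.237 and 0.412 for PGCC against parental cells, between 0.171 and 0.444 with LCL521, between 0.458 and 0.813 for LCL521 in parental cells and between 0.385 and 0.619 in PGCC. The tests named no block in the study's methods, and a fit with that number as a block was an alternative, beside DESeq2 1.42.0, RLE size factors, library totals, 2 other filters, a length correction, a fit of all libraries and leaving out replicates. Within a condition, libraries varied beyond counting error (chi-square per degree of freedom from 4.69 to 110 over 60 pairs), so none was counted as a duplicate. A count of 3 in a library was taken as the floor, at counting error only, and all 10 genes were above it in every library. The procedure was tested on simulated counts of parental cells and PGCC. These counts held no replicate effect, so the differences between replicates were not covered. Values of some marker genes are not reported here.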

Additional observations from a re-analysis of the deposited data

Results flagged for a closer look

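In parental cells with LCL521, NCAPG2 had a single library far above the others: replicate 5 had 31.82 CPM, the next highest had 22.27 CPM and the lowest 19.46 CPM. The gap was 0.773 of the range, above Dixon's critical value of 0.625 for 6 values. Of 40 groups of a gene in a condition, 1 was singled out in this way, and chance does so in about 1 of 20 groups. In parental cells without LCL521, replicate 5 was also the highest for NCAPG2, at 28.3 CPM. Whether the division of replicates 4 and 5 from the others has a part in this value was not tested.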

How the results depend on the processing

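All 10 genes kept their direction in PGCC against parental cells in each of the 15 alternatives, with and without LCL521, and of 150 values of single genes 147 stayed past the threshold without LCL521 and 150 with it. The exceptions were those of SMC4 without replicate 1, 2 or 3, so that 9 or 10 of the 10 genes passed when a replicate was left out. The replicate block changed the call of 0 of the 10 genes in any comparison: 10 passed with the block in PGCC against parental cells. Over all genes, the block moved the number past the threshold for LCL521 from 0 to 115 in parental cells and from 1 to 234 in PGCC. In PGCC that number was 6 with DESeq2, 0 without replicates 4 and 5, 0 in a fit of all 24 libraries, and between 0 and 1 when a replicate was left out. Scaling by library totals gave 3820 higher and 2521 lower genes in PGCC against parental cells in place of 3186 and 3355, and TOP2B then had a log2 fold change of -0.82. For LCL521 and the interaction, 0 of the 10 genes passed in every alternative, but many of these values are near 0 and have no settled direction. Depth limits the 10 genes little, since the lowest count was 102.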
